A study of Caenorhabditis elegans with 6 samples.

Results

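The genes described here are the insulin-like peptides of C. elegans and the genes of the dauer pathway. They were chosen by symbol, as every gene of the deposited table named ins or daf with a number, except daf-21, together with age-1, akt-1, akt-2, pdk-1 and sgk-1. This gave 61 of the 16391 genes of the table, of which 32 carry an ins symbol, 24 a daf symbol and 5 are kinases of the insulin receptor cascade. Their expression was compared between 2 groups of 3 RNA-seq libraries from whole wild-type worms (strain N2), one cultivated at 25°C and the other at 15°C. Both groups were fed E. coli OP50 and were collected as L4 larvae, the last larval stage, after hatching and developing at their own temperature. Nothing in the sample records says whether the libraries of a group come from separate cultures, so p-values measure the spread between these libraries, which may be technical.

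Dauer is an alternative larval stage that worms enter under crowding, hunger or heat instead of growing to adulthood. Insulin-like peptides act on DAF-2, the insulin receptor of the worm. Through the phosphoinositide 3-kinase AGE-1 and the kinases PDK-1, AKT-1 and AKT-2, active DAF-2 keeps the transcription factor DAF-16/FOXO out of the nucleus. A parallel TGF-β signal from the ligand DAF-7 runs through its receptors and Smad proteins. Both inputs converge on the steroid hormone dafachronic acid, whose nuclear receptor DAF-12 decides between growth and dauer. Some insulin-like peptides act as agonists of DAF-2 and others as antagonists.

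The table gives FPKM, the fragments of a gene divided by its transcript length and by the mapped fragments of the library. This is meant to make levels comparable between genes of unequal length. Differences were tested with limma, two-sided, on log2(FPKM + 0.5), a scale that understates the change of low genes, and p-values were adjusted by Benjamini-Hochberg over the 12996 genes that averaged 1 FPKM or more. A gene was called where its log2 fold change lay beyond 1 in either direction and its adjusted p was under 0.01. Of the 61 genes, 58 passed the filter, and daf-6, daf-10 and daf-11 did not. Over all tested genes 6.96% were called higher at 25°C, 5.59% were called lower, 39.5% had an adjusted p under 0.05, and in 54.7% the temperatures had no overlap between libraries. The FPKM of a library summed to between 2663992 and 2776526 at 25°C and to between 2865856 and 3313082 at 15°C, and bringing these sums to one level, as rescaling to TPM and equal sums do, moved the median log2 fold change over the whole tested set from -0.03 to 0.13 and 0.15. Higher genes made up 55.5% of all calls as deposited, 73.5% with rescaling to TPM and 74.2% with equal sums. Sequencing depth is unknown, and an exact 0 can be a failed estimate, so genes are said to be listed at 0.

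As a check of the stage, 6 sperm genes, 4 of them genes of the major sperm protein, summed to between 4510 and 4819 FPKM at 25°C and to between 4658 and 6918 FPKM at 15°C, sums that overlap. Within them msp-19 was lower (log2 fold change -0.94, adjusted p = 0.0042) and spe-11 higher (0.52, adjusted p = 0.042), both without overlap. Genes of yolk and oocytes differed between the temperatures. All 8 of those in the table had a negative log2 fold change, 5 were called lower, and they summed to between 1775 and 2151 FPKM at 25°C and to between 3103 and 5156 FPKM at 15°C. Among 5 genes of the molt, mlt-8 was called higher, nas-37 and noah-1 had log2 fold changes of -0.92 and -0.68, and the 5 summed to between 39.0 and 41.3 FPKM at 25°C and to between 24.3 and 27.7 FPKM at 15°C. Most of these sums came from mlt-8, with means of 34.7 FPKM at 25°C and 15.0 FPKM at 15°C. The means of nas-37, noah-1, bli-1 and fbn-1 were lower at 25°C, though the libraries of fbn-1 overlapped. The part of these differences in the results on the insulin and dauer genes was not tested. In whole worms, fewer cells of a type and less RNA per cell cannot be told apart.

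Of the 58 tested genes, 2 were called lower at 25°C, the insulin-like peptides ins-35 and ins-31, and 0 were called higher by limma. At an unadjusted p under 0.05 there were 13 lower and 9 higher, or 37.9%, beside 26.9% lower and 22.9% higher, or 49.9%, of all tested genes. The limma test against a 2-fold change called 0 of the 58 genes in either direction. Over all 12996 tested genes it called only 137 higher and 26 lower, so the 0 does not set these genes apart. By the thresholds above, the share of genes called was 3.45%, against 12.5% of all tested genes. Without the fold threshold, 2 genes were higher and 5 lower at an adjusted p under 0.01, where 9.83% and 9.76% of all tested genes were. At an adjusted p under 0.05 there were 8 genes higher and 8 lower, or 27.6%, beside 18.2% higher and 21.3% lower of all tested genes. The temperatures did not overlap in 19 genes, or 32.8%, with 8 higher and 11 lower, beside 25.9% higher and 28.7% lower of all tested genes. Over the 58 genes the log2 fold change had a median of -0.07, against -0.03 for all tested genes.

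**Figure D1:**
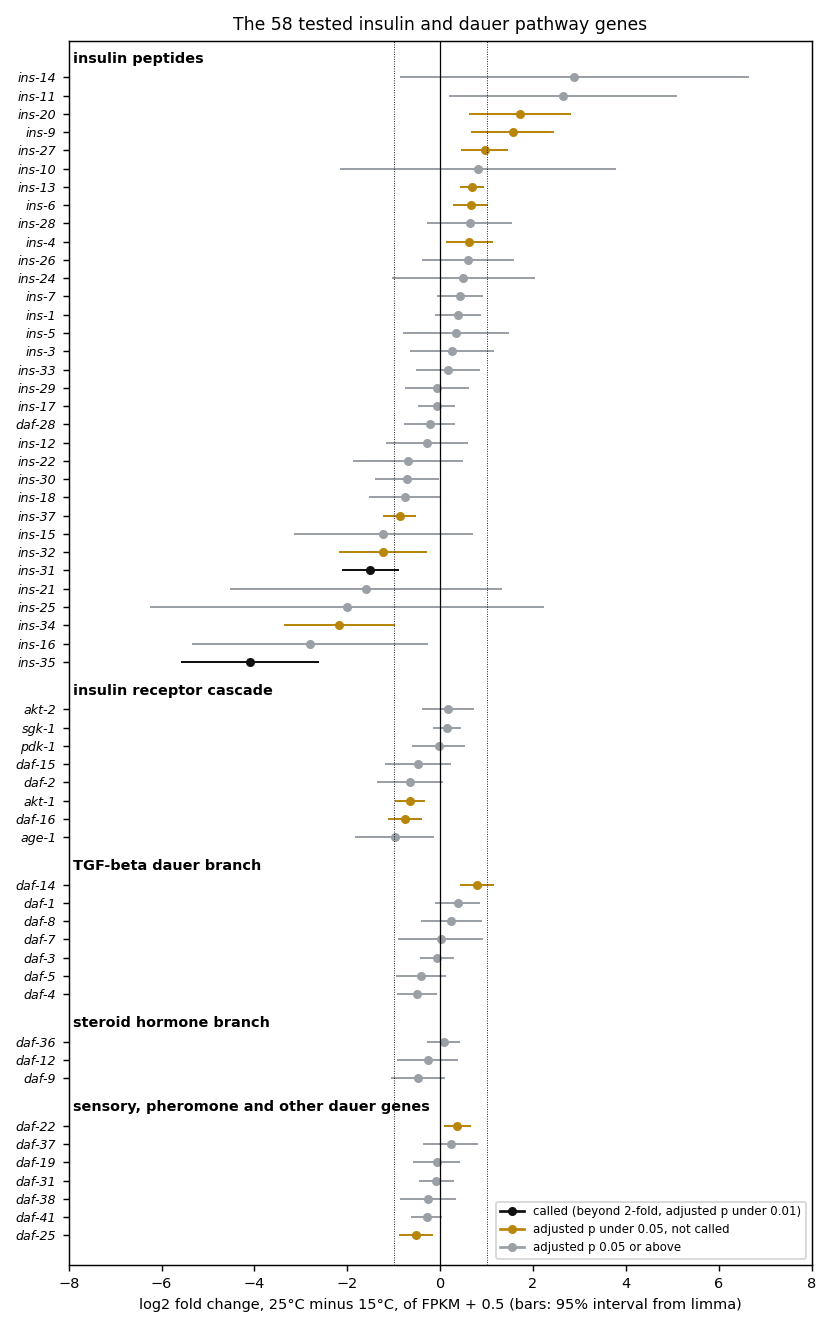
Log2 fold change, 25°C minus 15°C, of FPKM + 0.5 (x axis) for each of the 58 tested genes (y axis), grouped by role, with points for the estimate and bars for its 95% interval from limma, and dotted lines at a 2-fold change. The insulin-like peptides spread from -4.10 to 2.88, while all members of the other 4 groups lie between -0.98 and 0.79, and only ins-35 and ins-31 were called.

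The insulin-like peptides were a family of short transcripts with a wide range of levels. Of the 33, 2 were called, or 6.06%, beside 12.5% of all tested genes. A log2 fold change above 0 was found in 17 and below 0 in 16, and the median was 0.17. This median had no steady sign, with -0.03 once 25°C replicate 2 was left out, -0.07 once 15°C replicate 1 was, -0.15 once 15°C replicate 3 was, and 0.34 with rescaling to TPM. The 33 genes, daf-28 included, had a median exonic length of 429 bases, against 2402 bases for the 28 other genes and 1247 bases for all genes of the table matched by name. ins-27, on chromosome I from 14027236 to 14027588, had the highest level, with 227, 236 and 274 FPKM at 25°C, against 97.4, 118 and 171 FPKM at 15°C. ins-13, on chromosome II from 5544512 to 5544864, was second, with 185, 189.6 and 191 FPKM at 25°C, against 117, 109 and 125 FPKM at 15°C. Together these genes made up 40.7%, 47.1% and 47.1% of the FPKM of all 33 insulin-like peptides at 25°C, against 27.8%, 23.6% and 36.8% at 15°C. The share at 25°C lay above that at 15°C in every library. ins-27 and ins-13 have only 310 and 308 exonic bases. How well FPKM corrects for length in such short transcripts was not tested, so their rank and share hold for FPKM only.

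Next in level was ins-7, an agonist made in the intestine and in neurons, with 97.2, 62.5 and 73.2 FPKM at 25°C, against 64.8, 61.5 and 46.2 FPKM at 15°C. Its libraries overlapped, and the log2 fold change of 0.42 did not pass (95% interval -0.05 to 0.89, adjusted p = 0.14). At the other end, ins-15 was at 0, 0 and 0.711 FPKM at 25°C, against 0, 4.38 and 1.08 FPKM at 15°C. Of all neighbours in the order of mean FPKM, only ins-13 and ins-7 had levels that did not overlap over the 6 libraries, so the order of the others is not set beyond their spread. Summed over the 33 genes, the FPKM were 1014, 902 and 987 at 25°C, against 770, 962 and 805 at 15°C, and these sums overlapped. Without ins-13 and ins-27 the sums were 602, 477 and 522 FPKM at 25°C, against 555, 734 and 509 FPKM at 15°C.

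Many of the lower peptides varied widely between libraries. Of the 33 genes, 10 were listed at 0 in a library, or 30.3%, against 2.76% of all tested genes and 0 of the 25 other tested genes. ins-14, for example, was listed at 20.2, 8.88 and 20.1 FPKM at 25°C, against 0, 39.2 and 0 FPKM at 15°C. ins-11 was at 13.5, 4.79 and 5.62 FPKM at 25°C, against 0, 7.04 and 0 FPKM at 15°C. In both the temperatures overlapped through 15°C replicate 2. Without it ins-14, ins-11 and ins-20 were called higher at 25°C, but the libraries left at 15°C were then all listed at 0. These calls come from leaving out the highest library at 15°C, so they add no support for a difference. The within-temperature SD on the log2 scale had a median of 0.597 over the insulin-like peptides, against 0.215 over the other 25 tested genes and 0.218 over all tested genes.

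**Figure D2:**
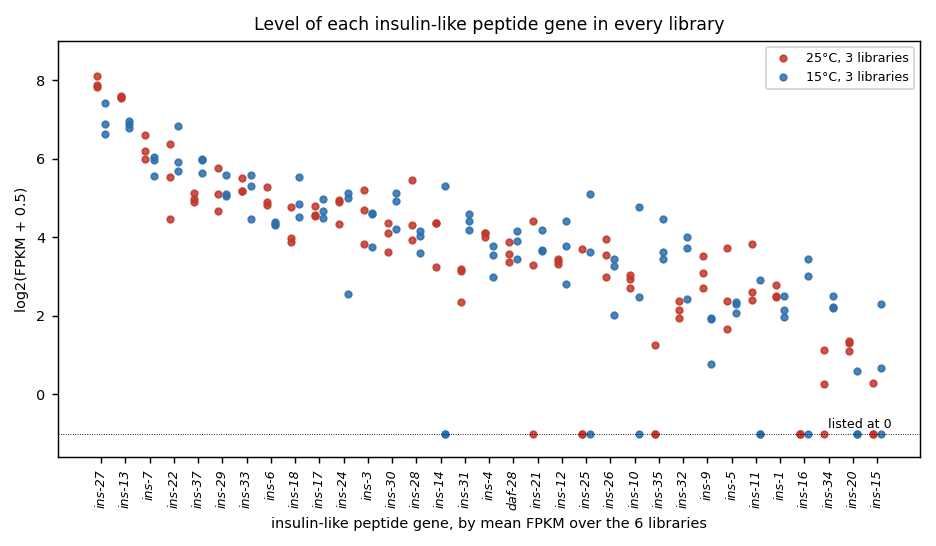
Level of the 33 insulin-like peptide genes as log2(FPKM + 0.5) (y axis) in each of the 6 libraries, with genes ordered by mean FPKM (x axis), red points for 25°C and blue points for 15°C. ins-27 and ins-13 lead at both temperatures, and the dotted line marks values listed at 0, which occur in 10 genes.

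ins-35 had the largest difference of the tested insulin and dauer genes. It encodes an intestinal peptide that acts against dauer entry, and lies on chromosome V of WBcel235 from 20375536 to 20376302 on the plus strand. It was listed at 1.87, 0 and 0 FPKM at 25°C, against 11.9, 21.7 and 10.3 FPKM at 15°C. The highest library at 25°C was well below the lowest at 15°C. The log2 fold change came to -4.10 (standard error, SE, 0.63, limma adjusted p = 0.0032), and was -5.69 with 0.1 added to the FPKM and -3.39 with 1 added. By exact two-sided permutation of the libraries p was 0.1, the lowest value that 3 and 3 libraries can give, as for every gene whose groups did not overlap. Among 6 marker genes of the intestine, elt-7 was called higher and 0 were called lower. Their sum was 1739 to 1785 FPKM at 25°C, against 1604 to 2150 FPKM at 15°C. Most of it came from act-5, with means of 1163 FPKM at 25°C and 1431 FPKM at 15°C. act-5 was lower without overlap (log2 fold change -0.29, adjusted p = 0.12), while elt-7, ges-1 and ifb-2 were higher without overlap (1.11, 0.20 and 0.33). That is 4 of the 5 tested ones, beside 54.7% of all tested genes. elt-2, a transcription factor that defines the intestine, had a log2 fold change of -0.05. The part of the intestine in the value of ins-35 was not tested.

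ins-31 lies on chromosome II from 3127041 to 3127831 on the plus strand. It had 8.35, 8.67 and 4.55 FPKM at 25°C, against 23.5, 20.9 and 17.8 FPKM at 15°C, with no overlap. This was a log2 fold change of -1.51 (SE 0.25, adjusted p = 0.0045). Both calls stood close to the threshold. That of ins-35 was lost without 25°C replicate 3 or any one library at 15°C (log2 fold changes from -4.30 to -3.72), and that of ins-31 without 25°C replicate 1 or any one library at 15°C (from -1.63 to -1.41). The number of insulin and dauer genes called lower was 0 without 15°C replicate 1, and it was 1 without replicate 1 or 3 at 25°C or replicate 2 or 3 at 15°C. Over all tested genes 287 were called lower without 15°C replicate 1 and 347 to 402 without those others, against 726 with every library.

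Of the insulin-like peptides that were not called, 3 more were lower at 25°C at an adjusted p under 0.05. ins-37, on chromosome II, had 29.3, 34.2 and 30.7 FPKM at 25°C, against 62.9, 62.3 and 49.0 FPKM at 15°C, and its log2 fold change of -0.87 (SE 0.14, adjusted p = 0.0038) fell short of 2-fold. ins-34, on chromosome IV, was at 0, 1.69 and 0.704 FPKM at 25°C, against 4.14, 5.17 and 4.08 FPKM at 15°C, a log2 fold change of -2.17 (adjusted p = 0.014). It was called without 25°C replicate 2 (-2.67), and 82 of its exonic bases overlap nkcc-1 on the other strand. ins-32 was at 4.65, 3.33 and 3.95 FPKM at 25°C, against 15.4, 4.86 and 12.7 FPKM at 15°C, a log2 fold change of -1.23 (adjusted p = 0.044). Its groups came close, at 4.65 and 4.86 FPKM, and without 15°C replicate 2 it was called (-1.71). ins-16 was listed at 0 throughout at 25°C, against 10.3, 7.50 and 0 FPKM at 15°C, so that its groups overlapped, and it was called lower without 15°C replicate 3. In ins-34, ins-32 and ins-16 the library left out was the one nearest to the other temperature. The calls made without it therefore add no support for a difference.

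In the other direction, 6 insulin-like peptides had an adjusted p under 0.05. With the 5 lower ones they made up 33.3% of the 33, beside 39.5% of all tested genes. At that limit 18.2% of all tested genes were higher and 21.3% lower. ins-13 was the steadiest, with a log2 fold change of 0.69 (SE 0.10, adjusted p = 0.0024), under 2-fold, and all 3 libraries at 25°C lay above those at 15°C. Its exons share 87 bases with those of acdh-2 on the same strand, so fragments there could belong to either gene. ins-27 had a log2 fold change of 0.96 (SE 0.21, adjusted p = 0.010). It was called higher without 15°C replicate 3, its highest library at 15°C (1.19), and with rescaling to TPM (1.14) or equal sums (1.149). ins-9 was at 10.95, 5.98 and 8.05 FPKM at 25°C, against 1.21, 3.35 and 3.30 FPKM at 15°C, a log2 fold change of 1.56 (SE 0.37, adjusted p = 0.015), also called with rescaling to TPM (1.42). ins-20 was low, with 1.95, 2.04 and 1.64 FPKM at 25°C, against 0, 1.003 and 0 FPKM at 15°C, a log2 fold change of 1.72 (SE 0.46, adjusted p = 0.023).

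ins-6 and ins-4 encode neuronal agonists of DAF-2 that work against the dauer state. ins-6 was at 27.8, 38.6 and 29.2 FPKM at 25°C, against 19.7, 19.4 and 20.3 FPKM at 15°C, a log2 fold change of 0.66 (SE 0.15, adjusted p = 0.014). ins-4 was at 16.6, 15.4 and 16.7 FPKM at 25°C, against 11.1, 13.2 and 7.46 FPKM at 15°C, a log2 fold change of 0.63 (SE 0.21, adjusted p = 0.049). In both the libraries did not overlap, and both differences were under 2-fold. The adjusted p of ins-4 stood just under the limit of 0.05. It was no longer under 0.05 with no filter (0.066), with no trend and without any one library except 15°C replicate 2. With a library left out, the log2 fold change of ins-4 lay between 0.41, without 15°C replicate 3, and 0.80, without 15°C replicate 2. daf-28, the best known agonist against dauer entry, showed no such separation, with 9.87, 14.1 and 11.32 FPKM at 25°C, against 17.3, 10.3 and 14.4 FPKM at 15°C (log2 fold change -0.23, 95% interval -0.75 to 0.30). The antagonists ins-1 and ins-18 had log2 fold changes of 0.39 and -0.76, neither at an adjusted p under 0.05, and their libraries overlapped. Among 6 genes of neurons in general, ehs-1 was called lower and 0 were called higher, and they summed to 486 to 507 FPKM at 25°C and 429 to 497 FPKM at 15°C, most of it from snb-1. Of these, unc-64, a syntaxin of neurons, had 69.9, 62.5 and 67.6 FPKM at 25°C, against 37.97, 41.2 and 35.3 FPKM at 15°C (log2 fold change 0.80, adjusted p = 0.0025), with no overlap and a size like that of ins-6 and ins-4. The rest of the list did not share this. rab-3, snb-1, ric-4 and egl-3 had log2 fold changes of -0.11, 0.08, 0.25 and -0.10 with overlapping libraries, ehs-1 was at -1.01, and the median over the 6 was -0.01. The part of neuronal transcripts in the values of ins-6 and ins-4 was not tested.

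**Figure D3:**
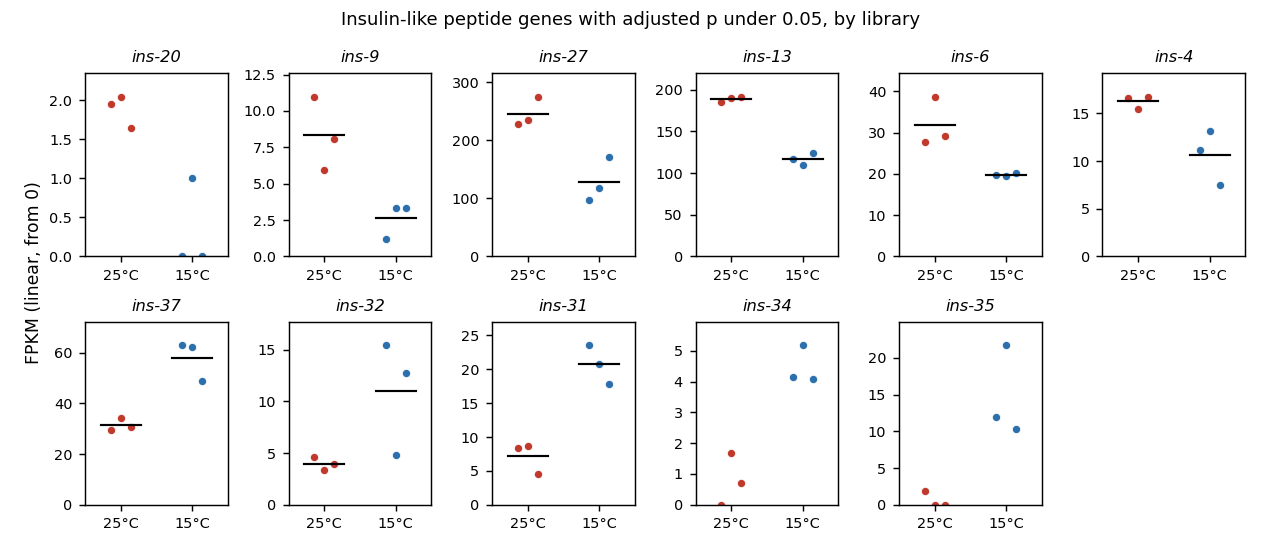
FPKM (y axis, linear from 0) of the 11 insulin-like peptide genes with an adjusted p under 0.05, in the 3 libraries at 25°C (red) and the 3 at 15°C (blue), with a bar at the mean where no library was listed at 0. The first 6 panels show genes higher at 25°C and the last 5 genes lower at 25°C, and the groups do not overlap in any of them.

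Insulin genes often lie side by side, and 19 of the 33 stand in 5 clusters in which neighbours are at most 30 kb apart. Some clusters held log2 fold changes of both signs and others did not. The cluster of 7 genes on chromosome I, from 14012369 to 14037777, runs from ins-28 to ins-26 and includes ins-27, the only one of the 7 with an adjusted p under 0.05. Its log2 fold changes went from -2.003 for ins-25, listed at 0 in 3 libraries, to 0.96 for ins-27. The cluster of 5 genes on chromosome II, from 5990099 to 6011321, holds ins-3, ins-4, ins-5, ins-6 and ins-20, and all 5 had log2 fold changes above 0, from 0.25 to 1.72, with 3 of them at an adjusted p under 0.05. For ins-3 and ins-5 the libraries overlapped.

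In the insulin receptor cascade daf-16 and akt-1 were lower at 25°C at an adjusted p under 0.01, but by less than 2-fold. By limma 0 of the 8 genes were called, beside 12.5% of all tested genes. An unadjusted p under 0.05 was found in 3, all lower, or 37.5%, beside the 49.9% of all tested genes. daf-16, the FOXO transcription factor at the end of the cascade, lies on chromosome I from 10750498 to 10776703. It was at 28.8, 30.3 and 27.1 FPKM at 25°C, against 44.4, 44.4 and 59.6 FPKM at 15°C. All libraries at 25°C lay below those at 15°C. The log2 fold change was -0.76 (SE 0.15, adjusted p = 0.0077). akt-1, a kinase that phosphorylates DAF-16, lies on chromosome V from 10248905 to 10252845. It was at 35.9, 42.2 and 42.3 FPKM at 25°C, against 60.8, 59.2 and 70.9 FPKM at 15°C, a log2 fold change of -0.66 (SE 0.13, adjusted p = 0.0076). Antisense to akt-1, rop-1 shares 8 exonic bases. With rescaling to TPM both differences shrank (-0.56 for daf-16 and -0.47 for akt-1) and no longer had an adjusted p under 0.01. The same held with no trend and with any one library left out, while the log2 fold changes then lay between -0.83 and -0.62 for daf-16 and between -0.71 and -0.58 for akt-1.

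The receptor gene daf-2 was at 3.66, 4.79 and 3.82 FPKM at 25°C, against 6.61, 4.36 and 10.05 FPKM at 15°C, and these libraries overlapped (log2 fold change -0.65, 95% interval -1.33 to 0.04, adjusted p = 0.12). age-1, the catalytic subunit of phosphoinositide 3-kinase, was at 4.66, 7.49 and 8.04 FPKM at 25°C, against 22.4, 8.84 and 12.2 FPKM at 15°C. Its groups did not overlap, but the 3 libraries at 15°C were far apart, and its log2 fold change of -0.98 had an adjusted p of 0.061 from limma. Of its exonic bases, 192 overlap B0334.10 on the other strand. daf-15, which encodes Raptor of the TOR complex, was at 9.08, 11.7 and 9.50 FPKM at 25°C, against 16.6, 8.75 and 19.7 FPKM at 15°C, with overlap, and shares 107 exonic bases with col-121 on the other strand. In daf-2, age-1 and daf-15 the lowest library at 15°C was replicate 2. Without it daf-2 stood at -0.92 and age-1 at -1.27, while daf-2 was at -0.36 without 15°C replicate 3 and age-1 at -0.63 without 15°C replicate 1.

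The remaining kinases of the cascade differed little. sgk-1, a kinase related to AKT, was at 38.1, 35.7 and 35.7 FPKM at 25°C, against 32.8, 30.6 and 35.8 FPKM at 15°C (log2 fold change 0.14, 95% interval -0.13 to 0.42). akt-2 was at 6.97, 7.95 and 9.01 FPKM at 25°C, against 6.60, 5.44 and 9.62 FPKM at 15°C (0.16, 95% interval -0.37 to 0.70). pdk-1 was at 1.64, 2.58 and 1.98 FPKM at 25°C, against 2.33, 1.749 and 2.28 FPKM at 15°C (-0.04, 95% interval -0.58 to 0.51, and 0.082 with rescaling to TPM). All 3 intervals exclude a 2-fold change. Of the AKT genes, akt-1 was the more abundant at both temperatures.

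The median log2 fold change over the 8 genes of the cascade was -0.56, and 6 of the 8 were below 0. Among all tested genes the median log2 fold change was -0.07 for those with up to 500 exonic bases and 0.04 for 501 to 1000 bases. It was 0.04 for 1001 to 2000 bases, -0.15 for 2001 to 4000 bases and -0.23 for longer ones, so it was lowest above 2000 bases. In these last classes 59.9% and 67.4% of genes were below 0. All genes of the cascade except sgk-1, with 1636 exonic bases, have more than 2000, and daf-2 and daf-15 have 8296 and 5883. With a correction for length, chosen after the data were seen, the median over the cascade was -0.31, with daf-16 at -0.54 and akt-1 at -0.55. It was -0.35 with rescaling to TPM and -0.31 without 15°C replicate 3.

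**Figure D4:**
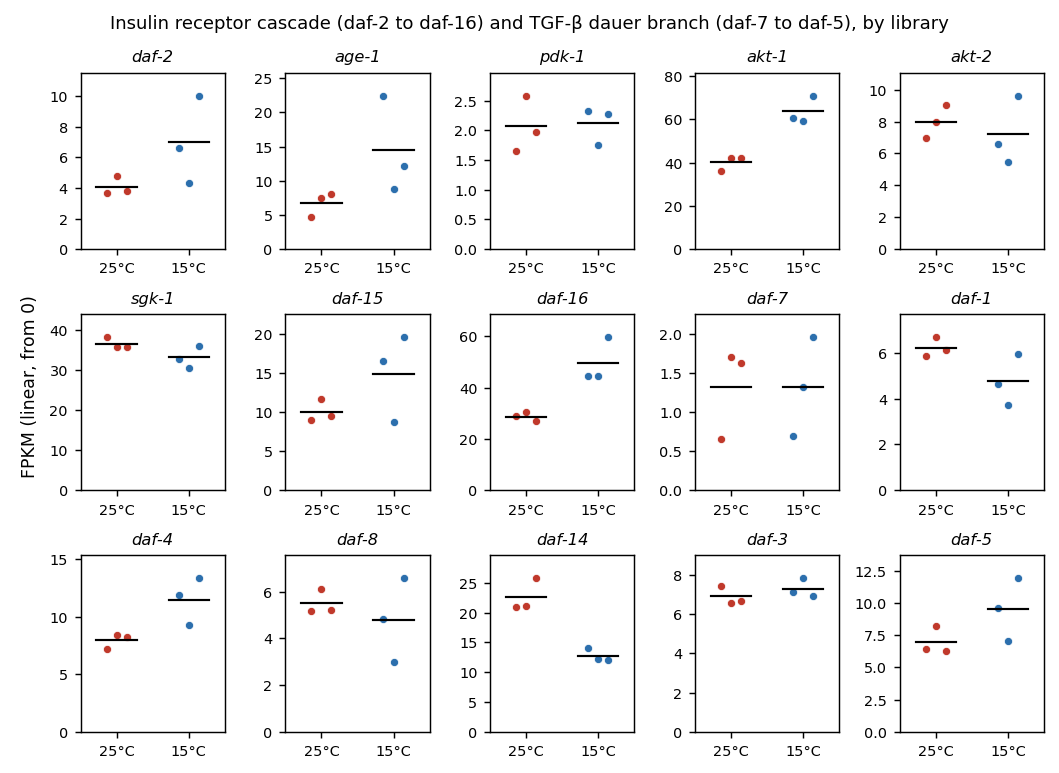
FPKM (y axes, linear from 0) of the 8 genes of the insulin receptor cascade, daf-2 to daf-16, and the 7 genes of the TGF-β dauer branch, daf-7 to daf-5, in the 3 libraries at 25°C (red) and the 3 at 15°C (blue), with bars at the means. The groups lie apart in age-1, akt-1, daf-16 and daf-4, which are lower at 25°C, and in daf-14, which is higher at 25°C.

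In the TGF-β dauer branch the only gene with an adjusted p under 0.05 was daf-14, and 0 of the 7 were called by limma, beside 12.5% of all tested genes. daf-14 and daf-4 had an unadjusted p under 0.05, or 28.6% of the branch, beside 49.9% of all tested genes. daf-14 encodes a receptor-regulated Smad, and lies on chromosome IV from 10250627 to 10255852. It was at 20.9, 21.1 and 25.7 FPKM at 25°C, against 14.1, 12.29 and 12.007 FPKM at 15°C, with a log2 fold change of 0.79 (SE 0.14, adjusted p = 0.0058), under 2-fold. Of its 1272 exonic bases, 111 overlap F01G10.9 on the other strand. The other receptor-regulated Smad of the branch, daf-8, was at 5.18, 6.11 and 5.22 FPKM at 25°C, against 4.84, 2.99 and 6.57 FPKM at 15°C, with overlap (0.24, 95% interval -0.40 to 0.87).

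The ligand daf-7, made in a pair of sensory neurons, was low in these whole worms, at 0.653, 1.70 and 1.63 FPKM at 25°C, against 0.692, 1.32 and 1.96 FPKM at 15°C. The log2 fold change of daf-7 was 0.01, with a 95% interval of -0.89 to 0.90. The type I receptor gene daf-1 was at 5.84, 6.67 and 6.11 FPKM at 25°C, against 4.61, 3.71 and 5.94 FPKM at 15°C, with overlap. The type II receptor gene daf-4 was at 7.24, 8.39 and 8.26 FPKM at 25°C, against 11.9, 9.26 and 13.3 FPKM at 15°C, without overlap (log2 fold change -0.49, adjusted p = 0.060). daf-3, the co-Smad that DAF-7 signalling antagonizes, was at 7.43, 6.59 and 6.69 FPKM at 25°C, against 7.14, 7.81 and 6.91 FPKM at 15°C (-0.07, 95% interval -0.42 to 0.27, and 0.090 with rescaling to TPM). daf-5, its Sno/Ski partner, was at 6.42, 8.25 and 6.27 FPKM at 25°C, against 9.62, 7.07 and 11.9 FPKM at 15°C (-0.41, 95% interval -0.92 to 0.11).

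The steroid hormone genes did not separate. daf-9, the cytochrome P450 of the last step of dafachronic acid synthesis, was at 2.42, 3.15 and 2.46 FPKM at 25°C, against 2.87, 4.22 and 4.88 FPKM at 15°C (log2 fold change -0.48, 95% interval -1.03 to 0.07). daf-36, the oxygenase of the first step, was at 44.0, 36.996 and 38.8 FPKM at 25°C, against 44.2, 36.4 and 33.6 FPKM at 15°C (0.07, 95% interval -0.26 to 0.41). daf-12, the receptor, was at 4.39, 3.88 and 4.004 FPKM at 25°C, against 5.13, 3.33 and 7.38 FPKM at 15°C (-0.27, 95% interval -0.91 to 0.37). In all 3 the libraries overlapped, and by limma 0 were called, with 0 at an unadjusted p under 0.05. Of all tested genes 54.7% had no overlap, 12.5% were called and 49.9% had an unadjusted p under 0.05. With 3 genes, counts of 0 do not set the branch apart from these shares.

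Among the sensory, pheromone and other dauer genes, daf-22 and daf-25 stood apart by less than 2-fold. daf-22, the peroxisomal thiolase that shortens the side chain of the dauer pheromones, was at 135, 126 and 119 FPKM at 25°C, against 92.1, 107 and 94.3 FPKM at 15°C (log2 fold change 0.37, SE 0.11, adjusted p = 0.036). daf-25, which brings guanylyl cyclases into the cilium, was at 18.03, 21.97 and 20.8 FPKM at 25°C, against 25.1, 32.4 and 30.6 FPKM at 15°C (-0.52, SE 0.15, adjusted p = 0.029). Neither pair of groups overlapped. With rescaling to TPM daf-25 stood at -0.33 and no longer had an adjusted p under 0.05.

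daf-6, a Patched-related gene of the glia around sensory endings, lay below the filter, at 0.980, 0.858 and 1.01 FPKM at 25°C, against 0.379, 0.351 and 0.438 FPKM at 15°C. With no filter its log2 fold change was 0.70 (adjusted p = 0.016), on a scale where the pseudocount of 0.5 weighs heavily. Of 6 genes of the glia around amphid sensory endings 0 were called by limma, with 0 at an unadjusted p under 0.05, beside 12.5% and 49.9% of all tested genes. The 6 summed to 225 to 261 FPKM at 25°C, against 199 to 233 FPKM at 15°C. Most of these sums came from T02B11.3, with means of 201 FPKM at 25°C and 179 FPKM at 15°C. daf-11, a guanylyl cyclase of sensory neurons, was at 0.544, 0.535 and 0.484 FPKM at 25°C, against 0.388, 0.0992 and 0.301 FPKM at 15°C, and daf-10, a subunit of ciliary transport, at 0.549, 0.605 and 0.814 FPKM at 25°C, against 0.550, 0.331 and 0.482 FPKM at 15°C. The 11 marker genes of ciliated neurons in the table summed to 7.80 to 10.21 FPKM at 25°C, against 5.68 to 6.76 FPKM at 15°C, with no overlap. Of these, 9 lay below the filter. With no filter osm-1, osm-3 and osm-5 had log2 fold changes of -0.08, -0.20 and -0.06, while che-2, che-3, che-11, bbs-1, bbs-2 and xbx-1 were above 0. In these 9 the libraries overlapped except in che-2. che-13, a subunit of ciliary transport, was the most abundant, with 2.54, 2.79 and 3.36 FPKM at 25°C, against 1.70, 1.60 and 1.56 FPKM at 15°C (log2 fold change 0.67, adjusted p = 0.033), and osm-6 had a log2 fold change of 0.46 (adjusted p = 0.27). None of the 11 was at 0 in every library, and their part in the values of daf-10, daf-11 and daf-25 was not tested.

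daf-41, the p23 co-chaperone of Hsp90, was the most abundant of all 61 genes, at 832, 882 and 839 FPKM at 25°C, against 977, 1248 and 926 FPKM at 15°C. Its groups did not overlap, but its log2 fold change of -0.29 did not pass (adjusted p = 0.12). daf-31, the catalytic subunit of an N-terminal acetyltransferase, was at 285, 257 and 261 FPKM at 25°C, against 271, 351 and 239 FPKM at 15°C. daf-19, the RFX factor of ciliated neurons, and the pheromone receptor genes daf-37 and daf-38 had log2 fold changes of -0.07, 0.22 and -0.26, with overlapping libraries.

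Other genes of these pathways were taken from lists of processing and release of insulin, the cascade, partners and targets of DAF-16, dafachronic acid, ascarosides, sensory cGMP signalling and dauer TGF-β signalling. Of 92 genes listed, 75 were in the table and 65 were tested. Among the tested genes 2 were called higher at 25°C and 4 called lower, together 9.23%, beside 12.5% of all tested genes. Targets of DAF-16 made up 5 of these 6. sod-3, the mitochondrial superoxide dismutase often read as a sign of DAF-16 activity, was at 5.60, 5.65 and 6.42 FPKM at 25°C, against 16.6, 12.8 and 15.4 FPKM at 15°C, a log2 fold change of -1.26 (SE 0.16, adjusted p = 0.0014). It fell at 25°C, although with rescaling to TPM its change of -0.99 was just under 2-fold. mtl-1, a metallothionein and also a target of DAF-16, went the other way, listed at 33.5, 18.4 and 36.5 FPKM at 25°C, against 0 in each library at 15°C (adjusted p = 8.7e-05).

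fat-7, a fatty acid desaturase, was at 59.1, 36.8 and 42.4 FPKM at 25°C, against 221, 165 and 161 FPKM at 15°C (log2 fold change -1.98). The small heat shock gene sip-1 was at 289.8, 527 and 384 FPKM at 25°C, against 874, 1195 and 1019.8 FPKM at 15°C (-1.39). hsp-12.3, another small heat shock gene, was at 21.5, 13.5 and 16.9 FPKM at 25°C, against 32.8, 40.6 and 31.5 FPKM at 15°C (-1.01). All 3 were called lower and had no overlap. The call of hsp-12.3 stood at the threshold of 2-fold and was lost without any one library except 25°C replicate 1 (-1.08 to -0.85), and that of sip-1 without 25°C replicate 3 or any one library at 15°C (-1.51 to -1.28). hsp-12.6, also a small heat shock gene, was at 1.25, 1.08 and 2.30 FPKM at 25°C, against 12.32, 2.90 and 3.52 FPKM at 15°C (log2 fold change -1.50, adjusted p = 0.053). Over the 15 tested targets, 1 was called higher and 4 lower, or 33.3%, beside 12.5% of all tested genes, and the median log2 fold change was -0.31. At an unadjusted p under 0.05 there were 6 of each, or 80%, beside 49.9%. At an adjusted p under 0.05 there were 5 higher and 4 lower, or 60%, beside 39.5%. Besides mtl-1, those higher were icl-1, of the glyoxylate cycle (log2 fold change 0.95, adjusted p = 0.0046), dod-6 (0.87, adjusted p = 0.025), nnt-1, a nicotinamide nucleotide transhydrogenase (0.69, adjusted p = 0.024), and the catalase ctl-1 (0.54, adjusted p = 0.028), each under 2-fold. These listed targets of DAF-16 moved in both directions. The list is short and was chosen with earlier results of these data known, so its shares are given without a reading. The sixth gene called was nhr-8, a nuclear receptor that acts in dafachronic acid synthesis, at 67.8, 53.6 and 61.2 FPKM at 25°C, against 22.9, 34.3 and 30.2 FPKM at 15°C. The log2 fold change of 1.06 lay just beyond 2-fold, and the call was lost without 25°C replicate 1 or 3 and without 15°C replicate 1 or 3 (0.90 to 1.098).

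In the remaining lists 0 genes were called by limma, beside 12.5% of all tested genes. Over all tested genes 39.5% had an adjusted p under 0.05 and 49.9% an unadjusted p under 0.05. The lists are short, so their counts are given without a reading. Of 10 tested partners of DAF-16, 9 had a log2 fold change below 0, with a median of -0.56, where 6732 of all 12996 tested genes were below 0. At an adjusted p under 0.05, 3 partners were lower and 1 higher, or 40%, near the share of all tested genes. At an unadjusted p under 0.05, 6 were lower and 1 higher, or 70%. Further genes of the cascade gave 2 lower of 7 tested at an adjusted p under 0.05, with a median of -0.28, against 3 lower at an unadjusted p under 0.05. Genes of insulin processing and release gave 3 lower and 1 higher of 13, further genes of the TGF-β branch 1 lower and 2 higher of 6, ascaroside genes 1 lower of 4 and genes of sensory cGMP signalling 0 of 4, all at an adjusted p under 0.05. At an unadjusted p under 0.05 these last 4 lists had 4, 1, 1 and 0 genes lower and 2, 2, 1 and 0 higher.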

How the data were processed

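RNA from whole N2 worms was sequenced as 3 libraries at 25°C and 3 at 15°C. Per the submitters' processing notes, the authors aligned reads with TopHat2 2.0.6 to WBcel235 and used Cufflinks, and the deposited values are FPKM per gene, 1 column a library and all used. Depth cannot be had from FPKM, so no counting interval is given, and values between libraries rest on the authors' scaling. Whether strand was used in counting is not given in the sources used here.

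Values were tested as log2(FPKM + 0.5) in limma 3.58.1 (R 4.3.3) with an intensity trend, on genes averaging 1 FPKM or more, with Benjamini-Hochberg adjustment. The procedure was tested on simulated data. A gene was called at an adjusted p under 0.01 and beyond 2-fold. Summaries were made in Python 3.11.15. Positions and exonic lengths came from the Ensembl annotation of WBcel235, which held all 61 genes by symbol. Another 8 annotated genes with such symbols were not analysed here.

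Library values are given for genes called, genes at an adjusted p under 0.05, the 3 highest insulin-like peptides, genes listed at 0 throughout one temperature, and the core pathway genes. Among the other pathway genes they are given for those called and for sod-3, mtl-1 and hsp-12.6. ins-1, ins-11, ins-14, ins-15, ins-18, ins-25, daf-6, daf-10, daf-11, daf-19, daf-31, daf-37, daf-38 and daf-41, the targets icl-1, dod-6, nnt-1 and ctl-1, and single marker genes were singled out after their values were seen. All genes and lists were chosen with earlier results of these data known. Alternatives changed the pseudocount, filter, scaling, threshold, variance trend, replicate block and libraries used.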

Additional observations from a re-analysis of the deposited data

How the results depend on the processing

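Counts of calls moved with scaling, threshold and single libraries. Of the insulin and dauer genes, 0 were called higher as deposited, against 2 with rescaling to TPM, 1 with equal sums, 2 at an adjusted p under 0.01 with no fold threshold, and 0 to 3 with a library left out, where the 3 came without 15°C replicate 2. Called lower were 2, against 5 with no fold threshold, 0 by the limma test against a 2-fold change, and 0 to 3 with a library left out, where the 0 came without 15°C replicate 1. Over all 12996 tested genes 904 were called higher as deposited. This was 1096 with rescaling to TPM, 1212 with equal sums and 1278 with no fold threshold. Called lower over all tested genes were 726, and 395, 422 and 1269 with the same settings. With a library left out, 569 to 794 were called higher and 287 to 824 lower. Of the other pathway genes 2 were called higher, against 4 with rescaling to TPM, equal sums, no fold threshold or the length correction, which was chosen after the data were seen, 1 by the test against a 2-fold change, and 1 to 2 with a library left out. Called lower were 4, against 2 with rescaling to TPM, 0 by the test against a 2-fold change, and 2 to 4 with a library left out. Same-numbered libraries of the 2 temperatures deviated with correlations of -0.04, -0.10 and -0.05, and the other pairs with -0.12 to 0.16. With 3 libraries per temperature this cannot show whether same-numbered libraries belong together, and the labels do not say. With replicate number as a block, ins-31 was the 1 insulin or dauer gene called lower, ins-35 was not called and 0 were called higher. In that fit daf-16 and akt-1 had no adjusted p under 0.01, and 1 of the other pathway genes was called higher and 3 lower. Over all tested genes the block called 597 higher and 406 lower, against 904 and 726, and the test against a 2-fold change 137 and 26. Of 712 values of 40 named genes over 18 alternatives, 645 kept their direction and call, and 15, in 6 genes near 0, changed sign. By scaling or length these were daf-3 with rescaling to TPM (0.090), equal sums (0.10) and the length correction (0.12), and pdk-1 with the same settings (0.082, 0.11 and 0.093). With a library left out, akt-2 ranged from -0.0065, without 15°C replicate 2, to 0.38, daf-36 from -0.0099, without 15°C replicate 3, to 0.19, and daf-8 from -0.036, without 15°C replicate 2, to 0.47. Likewise daf-7 ranged from -0.27 to 0.31, below 0 without 25°C replicate 2 (-0.16), 25°C replicate 3 (-0.13) and 15°C replicate 1 (-0.27), and pdk-1 from -0.18 to 0.086, above 0 without 25°C replicate 1 (0.086) and, at 15°C, replicate 1 (0.024) and replicate 3 (0.0098). Depth is unknown, so the lowest insulin-like peptides, listed at 0 in some libraries, have no counting error to set beside their values.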
